A study of Mus musculus with 9 samples.

Results

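Lipid-associated macrophage genes are 10 genes (Gpnmb, Trem2, Mmp12, Atp6v0d2, Cd68, Cd9, Cd63, Lgals3, Itgax and Msr1) taken by their symbols from the 55253 gene symbols of a liver expression table, and all 10 were found. Liver RNA came from 9 male C57Bl/6J mice and was read by 3′ mRNA sequencing. The 5 WD+alcohol mice were fed a Western diet (WD) with 10% alcohol in sweetened water for 23 weeks, starting at 10 weeks of age. The 4 control mice of the same strain and sex had chow and tap water and carry the same 23-week label. The starting age of 10 weeks was taken to hold for them too, as no separate one is given. The labels join the diet, the alcohol and the sweetening in 1 treatment, whose parts cannot be told apart. Each library is taken as 1 mouse because the stated numbers of mice and libraries are equal.

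Lipid-associated macrophages are macrophages that gather in fatty liver, adipose tissue and atherosclerotic plaque, where they take up lipid and debris from dying cells and break them down in lysosomes. TREM2, a lipid-sensing receptor of the cell surface, signals through the adaptor TYROBP and is needed in mice for much of this programme. The 10 genes cover surface receptors (Trem2, Msr1 and the integrin gene Itgax), proteins of lysosomes and other vesicles (Gpnmb, Atp6v0d2, Cd68, Cd63 and Cd9) and secreted proteins (Mmp12 and Lgals3). Several of them, among them Cd9, Cd63 and Lgals3, are also expressed by many other cell types.

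Libraries held 3635860 to 6643645 reads in WD+alcohol and 5050763 to 5910285 reads in controls, and 1 read was worth 0.152 to 0.270 CPM (read counts scaled by the authors to library size with the TMM method). Albumin (Alb), the main hepatocyte transcript, averaged 18876 ± 3597 CPM in WD+alcohol (SD, n = 5) and 33497 ± 6566 CPM in controls (SD, n = 4), as liver tissue should show. The 8 hepatocyte markers summed to 29328 to 40923 CPM in WD+alcohol and 46128 to 68273 CPM in controls, and 3 of the 8 fell (Serpina1c, Apoa1 and Alb). In whole tissue, more cells of a type and more RNA per cell cannot be told apart. Changes were tested over 14759 genes with limma-trend on log2(CPM + 1), with Benjamini-Hochberg adjustment over all of them and a threshold of 0.05.

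With Western diet plus alcohol, 6 of the 10 genes rose (Gpnmb, Mmp12, Trem2, Atp6v0d2, Msr1 and Cd68) and 0 fell, and edgeR and DESeq2 also called 6 higher and 0 lower. Of all tested genes, 1.61% rose and 0.678% fell by the same rule, 2.29% in all. The median log2 fold change was 1.18 over the 10 genes and -0.001 over all tested genes. All 5 WD+alcohol libraries lay above all 4 controls for the 6 genes that rose, a separation seen in 3.34% of all tested genes. The other 4 genes (Lgals3, Itgax, Cd9 and Cd63) overlapped between the groups. Controls averaged under 1 CPM for Trem2 and Atp6v0d2, so these genes entered the test through their WD+alcohol levels, and a difference was built into their passing the filter.

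**Figure D1:**
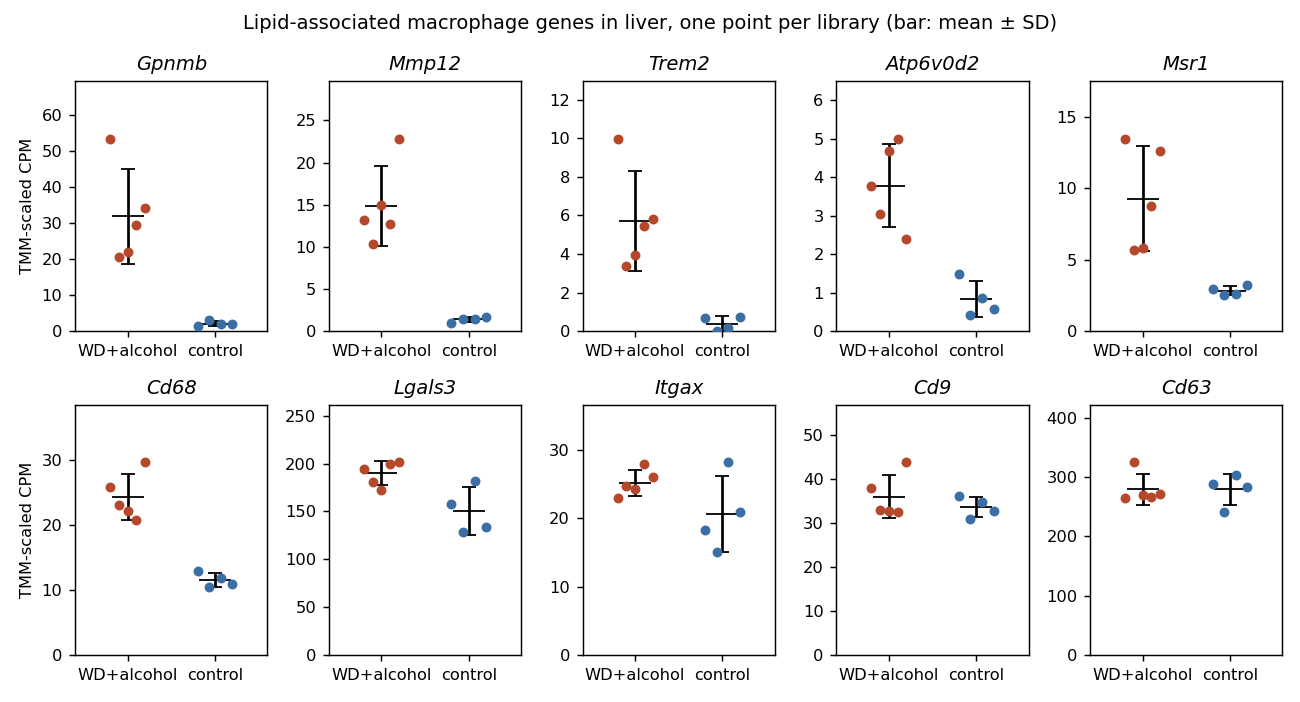
TMM-scaled CPM (vertical axes, each starting at 0) of the 10 genes in each library, with WD+alcohol (5 libraries, red) left of control (4 libraries, blue); points are libraries and bars the mean ± SD. The groups are separate for Gpnmb, Mmp12, Trem2, Atp6v0d2, Msr1 and Cd68, and overlap for Lgals3, Itgax, Cd9 and Cd63.

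Among the receptors, Trem2 had 9.97, 3.36, 3.94, 5.45 and 5.81 CPM in WD+alcohol 1 to 5, against 0.659, 0, 0.174 and 0.758 CPM in controls 1 to 4. The lowest WD+alcohol library was 4.44 times the highest control. These levels rest on few reads, 145 over the 5 WD+alcohol libraries and 9 over the 4 controls, and the absence of reads in control 2 allows a level of up to 0.630 CPM (3 reads, counting error only). Trem2 averaged 5.71 ± 2.59 CPM in WD+alcohol (SD, n = 5) and 0.398 ± 0.368 CPM in controls (SD, n = 4), and its log2 fold change was 2.22 ± 0.28 (SE; limma-trend adjusted p = 7.87e-04). On the log2(CPM + 1) scale the change of so low a gene is understated, since the ratio of the means was 14.3.

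Msr1 encodes scavenger receptor A, which takes up modified lipoproteins. It had 13.5, 5.65, 5.82, 8.79 and 12.6 CPM in WD+alcohol 1 to 5, against 2.97, 2.52, 2.61 and 3.22 CPM in controls 1 to 4. The controls were tightly grouped (coefficient of variation 11.5%), whereas the WD+alcohol libraries spread 2.38-fold from lowest to highest (39.7%). Its log2 fold change was 1.35 ± 0.24 (SE; limma-trend adjusted p = 0.00828). With the replicate number as a block the adjusted p was 0.0504.

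Itgax encodes CD11c, an integrin chain of macrophages and dendritic cells. It ranged from 22.9 to 27.9 CPM in WD+alcohol and from 15.1 to 28.2 CPM in controls, and control 3 was the highest library of all 9. The log2 fold change of Itgax was 0.31 (95% interval -0.01 to 0.62; limma-trend adjusted p = 0.431). The interval reaches no further than 0.62 on the log2 scale, below the fitted value of every one of the 6 genes that rose.

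Among the lysosomal genes, Gpnmb, which encodes a membrane glycoprotein of lysosomes in lipid-loaded macrophages, had 53.4, 20.5, 22.0, 29.4 and 34.0 CPM in WD+alcohol 1 to 5. It had 1.32, 3.15, 2.09 and 1.89 CPM in controls 1 to 4. Every WD+alcohol library was at least 6.50 times the highest control, and 813 reads stood against 45. Its log2 fold change of 3.35 ± 0.25 (SE; limma-trend adjusted p = 3.03e-05) was the 7th highest of all 14759 tested genes.

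Atp6v0d2 encodes a form of the d subunit of the V-ATPase proton pump, used by macrophages and osteoclasts. It had 3.77, 3.06, 4.69, 5.00 and 2.40 CPM in WD+alcohol 1 to 5, against 1.48, 0.420, 0.869 and 0.568 CPM in controls 1 to 4. The groups were separate but close, with WD+alcohol 5 at 1.62 times control 1. The log2 fold change of Atp6v0d2 was 1.38 ± 0.24 (SE; limma-trend adjusted p = 0.00742), from 104 reads in WD+alcohol and 19 in controls. The widely used d subunit gene, Atp6v0d1, averaged 41.6 ± 6.27 CPM in WD+alcohol and 39.9 ± 6.02 CPM in controls. Of the reads of both d subunit genes, Atp6v0d2 took 6.45% to 10.8% in WD+alcohol libraries and 1.10% to 2.99% in control libraries. The 95% Wilson interval of the lowest WD+alcohol share (3.73% to 10.9%) overlapped that of the highest control share (1.58% to 5.58%), and these shares were not tested.

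Cd68 encodes a heavily glycosylated protein of macrophage lysosomes and is a common stain for macrophages. It had 25.9, 23.1, 22.1, 20.8 and 29.6 CPM in WD+alcohol 1 to 5, against 12.9, 10.5, 11.8 and 11.0 CPM in controls 1 to 4. This was the smallest fitted change among the 6 genes that rose, with a log2 fold change of 1.01 ± 0.12 (SE; limma-trend adjusted p = 6.16e-04), and also the most even within WD+alcohol (coefficient of variation 14.5%).

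Cd63 and Cd9 encode tetraspanins, small membrane proteins of late endosomes and of the cell surface. Cd63, the most abundant of the 10 genes, ranged from 264 to 325 CPM in WD+alcohol and from 242 to 303 CPM in controls, with means of 279 CPM in both groups. Its log2 fold change was 0.0004 (95% interval -0.19 to 0.19; limma-trend adjusted p = 0.999). Reads of Cd63 could be shared with its pseudogene Cd63-ps, which averaged 17.5 ± 5.47 CPM in WD+alcohol and 15.0 ± 2.61 CPM in controls. Cd9 ranged from 32.6 to 43.8 CPM in WD+alcohol and from 30.9 to 36.3 CPM in controls, and its log2 fold change was 0.09 (95% interval -0.14 to 0.32; limma-trend adjusted p = 0.813). For both genes a change of more than about 0.32 on the log2 scale lies outside the 95% interval.

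Of the secreted proteins, Mmp12, the macrophage elastase that cuts elastin and other matrix proteins, had 13.2, 10.4, 15.0, 12.7 and 22.8 CPM in WD+alcohol 1 to 5. It had 0.989, 1.47, 1.39 and 1.71 CPM in controls 1 to 4. Every WD+alcohol library was at least 6.09 times the highest control. The log2 fold change of Mmp12 was 2.69 ± 0.21 (SE; limma-trend adjusted p = 3.03e-05). Mmp1b, which overlaps an exon of Mmp12 on the opposite strand in the GENCODE M21 annotation, had a mean of 0 CPM in both groups.

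Lgals3 encodes galectin-3, a sugar-binding protein secreted by macrophages and many other cells. It ranged from 173 to 201 CPM in WD+alcohol and from 128 to 182 CPM in controls, where control 3 was the highest. The log2 fold change of Lgals3 was 0.35 (95% interval 0.13 to 0.56), which did not pass adjustment (limma-trend adjusted p = 0.108; unadjusted p = 0.00432). Without control 3 it was 0.44 and passed (limma-trend adjusted p = 0.0269). This was the only 1 of 19 alternatives in which Lgals3 was called. With the replicate number as a block the limma-trend adjusted p was 0.516.

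The 10 genes span a wide range of levels, and because 3′ libraries give about 1 fragment per transcript their CPM need no length correction. Capture and mapping can still differ between genes, and the treatment of multimapping reads is not given. The order below is therefore one of CPM and not of transcript number. In WD+alcohol the order of the means was Cd63, Lgals3, Cd9 (36.1 CPM), Gpnmb (31.8 CPM), Itgax (25.2 CPM), Cd68 (24.3 CPM), Mmp12 (14.8 CPM), Msr1 (9.27 CPM), Trem2 and Atp6v0d2 (3.78 CPM). In controls it was Cd63, Lgals3, Cd9 (33.7 CPM), Itgax (20.6 CPM), Cd68 (11.5 CPM), Msr1 (2.83 CPM), Gpnmb (2.11 CPM), Mmp12 (1.39 CPM), Atp6v0d2 (0.835 CPM) and Trem2. Gpnmb thus stood 4th in WD+alcohol and 7th in controls. The libraries of neighbours in this order overlapped for every pair from Cd9 downwards in WD+alcohol and from Msr1 downwards in controls, and for no other pair.

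Within WD+alcohol the genes did not all rank the mice alike. Gpnmb, Trem2 and Msr1 gave the same order, with WD+alcohol 1 highest, then 5, 4 and 3, and WD+alcohol 2 lowest. WD+alcohol 2 was lowest for 4 of the 6 genes that rose, and WD+alcohol 5 was among the top 2 for 5 of the 6. Atp6v0d2 had another order, with WD+alcohol 4 highest and WD+alcohol 5 lowest. WD+alcohol 1, which holds the fewest reads, was highest for Gpnmb, Trem2 and Msr1. Without it the 3 log2 fold changes were 3.14, 2.03 and 1.21, and all 3 genes passed.

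**Figure D2:**
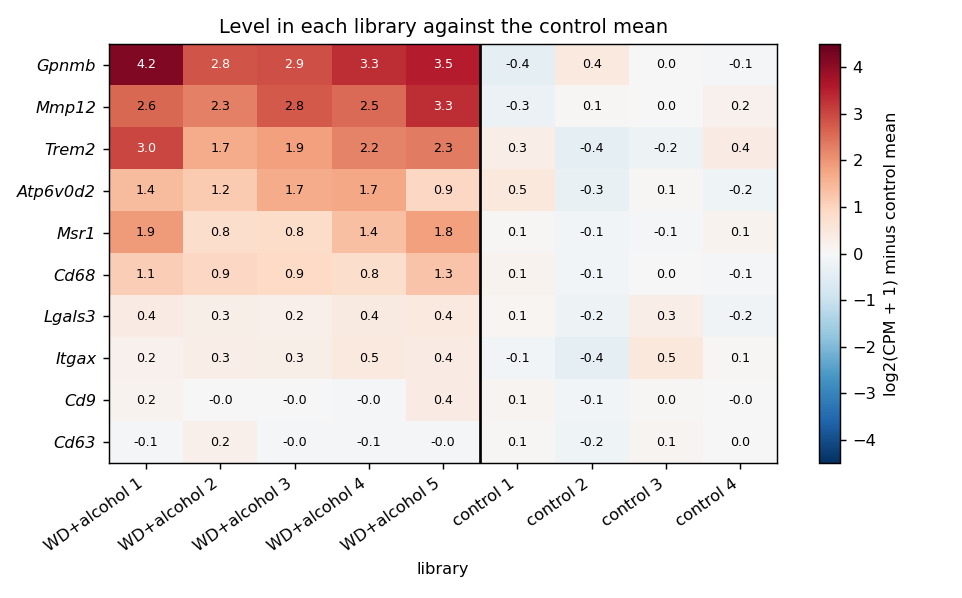
Difference of log2(CPM + 1) from the control mean (colour and printed value) for each gene (rows, ordered by fold change) in each library (columns, WD+alcohol left of the line and control right of it). Gpnmb lies 2.8 to 4.2 above the control mean in all 5 WD+alcohol libraries, and Cd63 lies between -0.20 and 0.22 in every library.

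Promoter sequence was examined because 6 of the genes rose together. RefSeq (build GRCm38.p6) gave the 250 bases before the annotated start for 8 of the 10 genes (all but Atp6v0d2 and Msr1), with 2 starts for Mmp12. Short motifs of factors known in macrophages were searched on both strands, namely the E-box CACGTG and the M-box core TCATGTG (bound by MITF and TFE factors), the PU.1 core GAGGAAG and the AP-1 site TGANTCA. No E-box was found, against 6.86% of 27025 genes that hold one. The M-box core was in 1 gene (Mmp12; 3.72% of all genes) and the PU.1 core in 3 (Trem2, Mmp12 and Cd63; 12.0% of all genes). The AP-1 site was in 4 (Trem2, Mmp12, Cd68 and Itgax; 7.82% of all genes), of which Itgax was not called. The promoters of these 4 genes are shown from 5′ to 3′ on the gene's strand and end at the base before the start, with matches in capitals.
Trem2, GRCm38.p6, chr17:48346151-48346400, plus strand: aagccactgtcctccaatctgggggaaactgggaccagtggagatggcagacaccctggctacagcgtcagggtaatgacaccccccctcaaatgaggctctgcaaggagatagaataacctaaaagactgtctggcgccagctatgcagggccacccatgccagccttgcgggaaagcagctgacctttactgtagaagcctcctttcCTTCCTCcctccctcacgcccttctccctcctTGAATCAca
Mmp12, GRCm38.p6, chr9:7347124-7347373, plus strand: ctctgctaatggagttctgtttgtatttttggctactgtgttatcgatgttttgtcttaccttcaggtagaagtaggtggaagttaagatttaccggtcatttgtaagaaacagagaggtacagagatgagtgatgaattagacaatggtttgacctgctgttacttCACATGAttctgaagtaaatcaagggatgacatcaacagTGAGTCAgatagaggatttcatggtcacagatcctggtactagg
Cd68, GRCm38.p6, chr11:69666171-69666420, minus strand: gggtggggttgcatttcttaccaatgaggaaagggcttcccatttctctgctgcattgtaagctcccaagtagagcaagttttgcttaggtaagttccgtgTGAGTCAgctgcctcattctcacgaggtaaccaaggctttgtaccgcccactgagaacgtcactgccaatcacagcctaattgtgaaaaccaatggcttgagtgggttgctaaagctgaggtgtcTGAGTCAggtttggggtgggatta
Itgax, GRCm38.p6, chr7:128129300-128129549, plus strand: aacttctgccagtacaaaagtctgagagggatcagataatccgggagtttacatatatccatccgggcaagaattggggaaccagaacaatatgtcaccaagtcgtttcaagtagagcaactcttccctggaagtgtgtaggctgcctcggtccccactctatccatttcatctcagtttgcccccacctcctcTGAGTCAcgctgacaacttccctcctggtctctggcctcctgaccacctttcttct
In Trem2 the capitals are the PU.1 core read on the opposite strand (CTTCCTC) and an AP-1 site at -9 from the start. In Mmp12, whose second start is shown, they are the M-box core on the opposite strand (CACATGA) and an AP-1 site. The PU.1 core of Mmp12 lies before its first start, which is not shown. That window holds no E-box, M-box core or AP-1 site. Cd68 holds a pair of AP-1 sites, at -149 and -24 from the start, and Itgax holds 1. Gpnmb had none of the 4 motifs in its window, which starts from 1 RefSeq start of that gene. The bases after each start were looked for in GENCODE M21 transcripts of the same gene. They were found, in whole or in their middle part, for all starts but those of Cd68 and Gpnmb. Positions in these genes are therefore less certain. A match is a run of letters and was not tested as a binding site.

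Other macrophage genes rose as well. Of 10 general macrophage markers, 7 rose (Lyz2, Adgre1, Fcgr1, Mertk, Csf1r, Fcer1g and Mpeg1) and 0 fell, with a median log2 fold change of 0.63. Lysozyme 2 (Lyz2) averaged 229 ± 51.3 CPM in WD+alcohol and 103 ± 7.58 CPM in controls, Adgre1 (F4/80) 21.7 ± 4.92 CPM in WD+alcohol and 8.50 ± 1.26 CPM in controls, and the Fc receptor gene Fcgr1 5.68 ± 1.40 CPM in WD+alcohol and 1.45 ± 0.472 CPM in controls. Their summed level was 670 to 884 CPM in WD+alcohol and 455 to 519 CPM in controls.

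The fit was therefore repeated with the mean log2 level of these 10 markers subtracted in each library, which asks whether a gene changed relative to the macrophage markers. Relative to them, 5 of the 10 genes rose (Gpnmb, Mmp12, Trem2, Msr1 and Atp6v0d2), against 0.617% of all tested genes, and 4 fell (Cd63, Cd9, Itgax and Lgals3), against 85.7% (86.3% in either direction). Cd68 did neither, with a relative log2 fold change of 0.25 (95% interval -0.09 to 0.59; limma-trend adjusted p = 0.158). Relative rises were not particular to the 10 genes. They were also found in 6 of 13 markers of Kupffer cells, the resident liver macrophages. Of 15 other scavenger receptors and related genes 3 rose, and of 18 lipid-handling and secreted genes 3 rose. In TREM2 signalling 0 of 15 rose on this scale. Of the 10 reference markers themselves, 4 rose. Laptm5, which is part of the reference, was nearly level at 103 to 120 CPM in WD+alcohol and 100 to 121 CPM in controls. This keeps the rise of the subtracted mean smaller. All p-values of this comparison share the error of the markers' mean. They cannot be set beside those of the first fit. For Gpnmb the unadjusted limma-trend p was 9.42e-13 here and 4.97e-09 there. Yet its change was smaller for its SE here (2.59 ± 0.22 against 3.35 ± 0.25, SE). A smaller p here is therefore no sign of greater certainty. With 86.3% of genes called, the adjustment also hardly raised p. For Atp6v0d2 the unadjusted limma-trend p was 0.0369 and the adjusted p 0.0433. An adjusted p on this scale thus guards the few higher calls little against multiple testing.

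Gpnmb rose by 2.59 ± 0.22 (SE) on the relative log2 scale (limma-trend adjusted p = 2.30e-09). Mmp12 rose by 1.94 ± 0.22 (adjusted p = 1.90e-07) and Trem2 by 1.47 ± 0.27 (adjusted p = 6.91e-05). For these 3 genes and for Msr1 all WD+alcohol libraries stayed above all controls on the relative scale. Gpnmb, Mmp12 and Trem2 were called in all 14 alternatives run. The calls of Msr1 (0.60 ± 0.22; adjusted p = 0.0150) and Atp6v0d2 (0.63 ± 0.29; adjusted p = 0.0433) depended on the settings. With Adgre1 and Csf1r alone as the reference, Msr1 stood at 0.10 and Atp6v0d2 at 0.14 and neither was called. With a pseudocount of 5, Msr1 stood at 0.21 and Atp6v0d2 at -0.04, and neither was called. Msr1 was also not called without WD+alcohol 1 (adjusted p = 0.0613), and Atp6v0d2 lost its call when any single library among WD+alcohol 2, 3 and 4 and controls 2 and 4 was left out, with adjusted p of 0.0595 to 0.118.

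Cd63 fell by 0.75 and Cd9 fell by 0.67 on the relative log2 scale (limma-trend adjusted p = 1.65e-04 and 3.27e-04), the behaviour of most tested genes, whose median was -0.76. Lgals3 (-0.41 ± 0.15; adjusted p = 0.0150) and Itgax (-0.45 ± 0.18; adjusted p = 0.0229) also fell. Neither was called without control 3 (adjusted p 0.106 and 0.179). Lgals3 was also not called with a pseudocount of 5 (adjusted p = 0.0549), nor Itgax with the summed CPM of the markers as reference (adjusted p = 0.0650). Itgax was not called without WD+alcohol 1 (0.0594) or WD+alcohol 5 (0.0517) either.

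**Figure D3:**
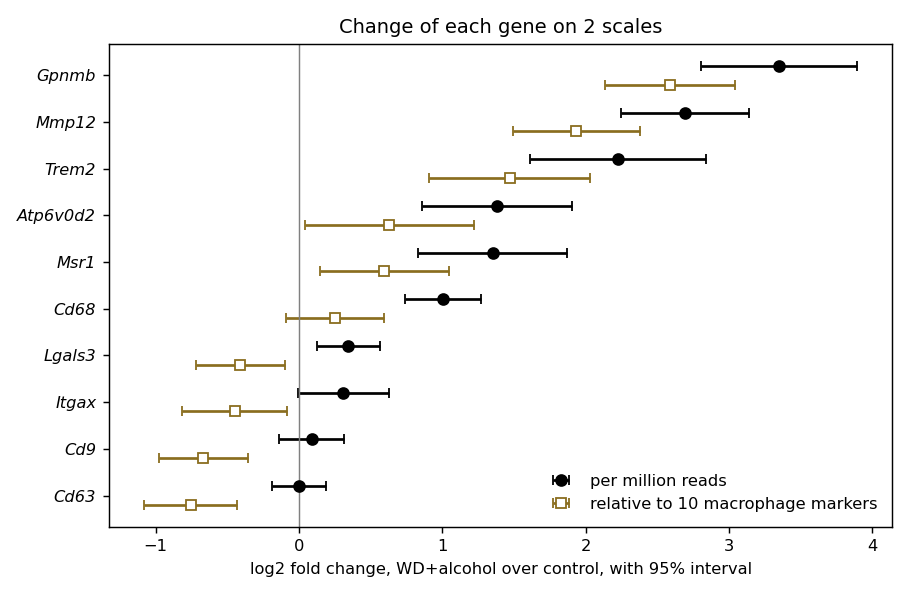
Log2 fold change of WD+alcohol over control with its 95% interval (horizontal axis) for each gene (vertical axis), from CPM (filled circles) and relative to the mean of 10 macrophage markers (open squares). Gpnmb, Mmp12 and Trem2 lie clear of 0 on both scales, while Cd68 (0.25 relative) reaches 0 on the relative scale.

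Genes that act with the 10 were followed in fixed lists. In TREM2 signalling, 2 of 15 tested genes rose (Tyrobp and Clu) and 0 fell, with a median log2 fold change of 0.21. Tyrobp, the signalling partner of TREM2, averaged 71.6 ± 7.65 CPM in WD+alcohol and 44.7 ± 4.00 CPM in controls (log2 fold change 0.67 ± 0.10, SE; limma-trend adjusted p = 0.00185). Clu, which encodes the lipid-carrying TREM2 ligand clusterin, averaged 1201 ± 118 CPM in WD+alcohol and 812 ± 88.2 CPM in controls. Apoe, another lipid-carrying ligand made mainly by hepatocytes, had a log2 fold change of 0.40 ± 0.17 and was not called (adjusted p = 0.357).

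Of 18 tested lipid-handling and secreted genes of lipid-associated macrophages, 7 rose (Lpl, Ctss, Ctsb, Abcg1, Ctsd, Fabp4 and Psap) and 0 fell, with a median log2 fold change of 0.37. Lipoprotein lipase (Lpl) averaged 127 ± 48.1 CPM in WD+alcohol and 14.8 ± 5.06 CPM in controls, the protease gene Ctss (cathepsin S) 117 ± 18.9 CPM in WD+alcohol and 51.2 ± 4.03 CPM in controls, and Ctsb (cathepsin B) 404 ± 47.3 CPM in WD+alcohol and 268 ± 15.1 CPM in controls. Spp1, which encodes osteopontin and is often used as a marker of these cells, averaged 124 ± 8.42 CPM in WD+alcohol and 118 ± 4.15 CPM in controls and was not called (adjusted p = 0.813).

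The gene families of the 10 genes were counted without the 10 themselves. Of all tested genes, 1.61% rose and 0.678% fell. The counts of 0 were 0 by limma-trend, edgeR and DESeq2 alike. Of 16 tested V-ATPase subunits other than Atp6v0d2, 0 were called. The most abundant of them, Atp6v0b, averaged 174 ± 9.85 CPM in WD+alcohol and 164 ± 4.68 CPM in controls. Of 12 tested MiT/TFE factors and lysosome co-regulators 0 were called, and the autophagy adaptor gene Sqstm1 averaged 295 ± 33.5 CPM in WD+alcohol and 272 ± 9.65 CPM in controls. Of 13 tested matrix metalloproteinases and their inhibitors other than Mmp12 0 were called, and the inhibitor Timp2 averaged 730 ± 61.0 CPM in WD+alcohol and 765 ± 26.3 CPM in controls. One tetraspanin of 16 rose (Cd81, 315 ± 33.9 CPM in WD+alcohol and 233 ± 26.6 CPM in controls), as did 1 galectin-related gene of 6 (Lgals3bp, 85.4 ± 21.3 CPM in WD+alcohol and 43.8 ± 7.17 CPM in controls) and 1 leukocyte integrin chain of 9 (Itgal, 10.7 ± 3.04 CPM in WD+alcohol and 4.70 ± 0.850 CPM in controls). At an unadjusted p under 0.05, 1 V-ATPase subunit gene (Tcirg1) and 1 MiT/TFE co-regulator (Rragd) were higher, and 1 metalloproteinase gene (Mmp25) was lower. By the same rule 1798 of all 14759 tested genes passed, counting both directions. Among other scavenger receptors and related genes, 3 of 15 rose: the macrophage protein gene Cd5l (155 ± 38.0 CPM in WD+alcohol and 26.0 ± 7.14 CPM in controls), the fatty acid receptor gene Cd36 (73.6 ± 13.5 CPM in WD+alcohol and 23.1 ± 3.33 CPM in controls) and the beta-glucan receptor gene Clec7a (36.9 ± 7.97 CPM in WD+alcohol and 15.2 ± 0.709 CPM in controls).

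**Figure D4:**
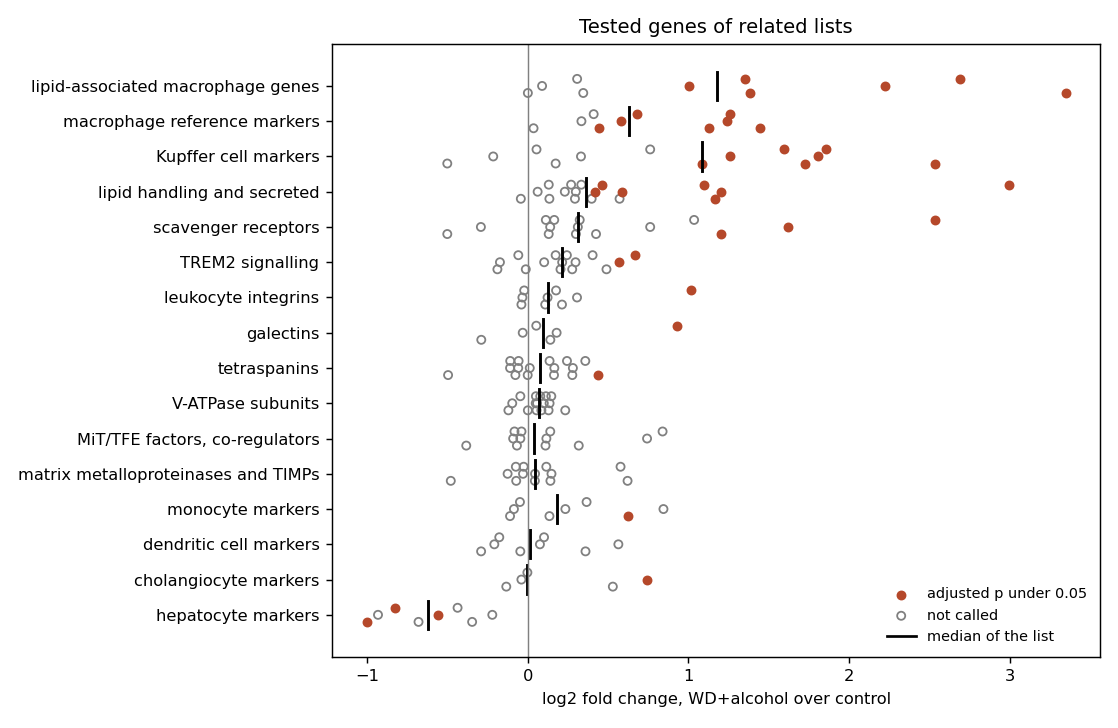
Log2 fold change of WD+alcohol over control (horizontal axis) of every tested gene in 16 lists (rows; endothelial, stellate, adipocyte and platelet markers are not drawn); filled red points passed an adjusted p of 0.05, open points did not, and black bars are list medians. The lipid-associated macrophage genes (median 1.18) and the Kupffer cell markers (median 1.09) have the highest medians of the 16 lists drawn, and the hepatocyte markers (median -0.62) lie left of 0. The adipocyte markers, not drawn, had a higher median (4.19) from 2 tested genes, Cidec and Cfd, with Adipoq, Plin1, Lep and Retn under the filter.

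The pattern closest to the mean profile of the 10 genes over the 9 libraries belonged to Ctss, followed by Clec7a, Lgmn, Lyz2 and Itga9. Their root-mean-square differences from that profile were 0.09, 0.10, 0.13, 0.14 and 0.16 on the log2 scale. Lgmn, which encodes the lysosomal protease legumain, averaged 32.4 ± 2.62 CPM in WD+alcohol and 14.1 ± 0.814 CPM in controls. Since that profile is higher in every WD+alcohol library than in every control, genes close to it differ between the groups by their selection.

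Markers of other cell types were measured beside these results. Of 13 markers of Kupffer cells, the resident macrophages of the liver, 7 rose (Cd5l, C1qc, C1qa, C1qb, Folr2, Vsig4 and Clec4f). C1qc and C1qa encode complement subunits. C1qc averaged 75.5 ± 17.9 CPM in WD+alcohol and 20.1 ± 4.41 CPM in controls, and C1qa 113 ± 31.7 CPM in WD+alcohol and 33.4 ± 8.54 CPM in controls. Timd4 averaged 2.43 ± 1.20 CPM in WD+alcohol and 2.86 ± 0.946 CPM in controls, and the list summed to 718 to 1058 CPM in WD+alcohol and 462 to 553 CPM in controls. Of 8 tested monocyte markers 1 rose (Plac8, 39.4 ± 7.37 CPM in WD+alcohol and 25.0 ± 2.23 CPM in controls) and 5 of the 8 had a positive log2 fold change (list median 0.18). The list summed to 1521 to 1668 CPM in WD+alcohol and 1611 to 1747 CPM in controls, of which Fn1, a fibronectin gene that hepatocytes also express, took 88.5% to 91.7%. Without Fn1 the sums were 138 to 180 CPM in WD+alcohol and 138 to 147 CPM in controls. The largest part of this rest was Vcan, at 77.3 to 90.9 CPM in WD+alcohol and 78.2 to 89.8 CPM in controls. These sums therefore say little about the less abundant markers. Chil3, under the filter, had 0.200 to 1.36 CPM in WD+alcohol and 0 CPM in every control, and was not tested. DESeq2 called 2 monocyte markers higher and 0 lower. Itgax is also a classical marker of dendritic cells. Of 8 other tested markers of these cells 0 were called by limma-trend, edgeR or DESeq2, and 0 had an unadjusted p under 0.05, with sums of 118 to 142 CPM in WD+alcohol and 120 to 135 CPM in controls, and Xcr1 averaged 47.6 ± 8.06 CPM in WD+alcohol and 48.7 ± 2.93 CPM in controls. Xcr1, like Fn1, Timp2 and the collagen genes Col1a1 and Col1a2, was abundant and nearly level in all 9 libraries, and a source that these transcripts could share was not tested.

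Of 9 markers of cholangiocytes, the epithelial cells of the bile duct, 5 were tested and 1 rose (Tm4sf4, 64.6 ± 16.2 CPM in WD+alcohol and 37.7 ± 5.21 CPM in controls). Of these 5, 2 had a positive log2 fold change (list median -0.003). The list summed to 152 to 199 CPM in WD+alcohol and 128 to 159 CPM in controls. Sox9 was nearly level, at 92.6 to 118 CPM in WD+alcohol and 90.9 to 109 CPM in controls, so the higher sums rest mainly on Tm4sf4. Platelet markers gave 1 rise of 3 tested (Pf4, 7.56 ± 2.38 CPM in WD+alcohol and 2.23 ± 1.04 CPM in controls) and summed to 100.3 to 125.7 CPM in WD+alcohol and 108 to 128 CPM in controls. Endothelial markers gave 0 calls of 8 by the same 3 tools. At an unadjusted limma-trend p under 0.05, 4 were higher (among them Pecam1, 40.4 ± 2.03 CPM in WD+alcohol and 30.5 ± 6.14 CPM in controls). By that rule 1798 of all 14759 tested genes passed, counting both directions. The endothelial list summed to 167 to 214 CPM in WD+alcohol and 118 to 184 CPM in controls. Stellate and fibroblast markers gave 2 rises of 9 (Dcn, 163 ± 29.9 CPM in WD+alcohol and 93.0 ± 14.3 CPM in controls, and Lum, 9.12 ± 4.25 CPM in WD+alcohol and 2.77 ± 0.947 CPM in controls) with 7 of the 9 positive (list median 0.26), and summed to 4547 to 5315 CPM in WD+alcohol and 4419 to 5126 CPM in controls. Col1a1 and Col1a2 took 87.5% to 91.3% of these sums, and without them the sums were 491 to 579 CPM in WD+alcohol and 405 to 456 CPM in controls. Both tested adipocyte markers rose (Cidec, 74.5 ± 38.2 CPM in WD+alcohol and 2.34 ± 1.75 CPM in controls, and Cfd, 58.4 ± 50.9 CPM in WD+alcohol and 1.45 ± 0.907 CPM in controls), while Adipoq, Plin1, Lep and Retn were under the filter and Lep was at 0 in every library. Adipoq reached at most 0.400 CPM, Plin1 1.08 CPM and Retn 0.188 CPM in any library. Whether Cidec and Cfd came from adipocytes was not tested. The part of these cell types in the changes of the 10 genes was not tested.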

How the data were processed

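Liver RNA of 5 WD+alcohol and 4 control mice was made into 3′ mRNA libraries, per the labels' protocols. The deposited values are a signal, counts scaled to library size and TMM factors by the authors (CPM), for 55253 symbols. Per the submitters' processing notes, the tools were Trim Galore 0.6.0, cutadapt 1.18, STAR, HTSeq 0.11.0, R 3.6.3 and edgeR 3.28.1, with build GRCm39 (mm39). The STAR version, the use of strand and the treatment of multimapping reads are not given in the sources used here. All positive values (100%, relative tolerance 1e-06) were whole multiples of the smallest in their column, so whole reads were recovered. On these reads edgeR called 315 genes.

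Samples were grouped by title and columns matched by library name. Of 24607 symbols with reads, 14759 with a mean of at least 1 CPM entered a two-sided limma-trend test of log2(CPM + 1) in R 4.3.3 (limma 3.58.1), with Benjamini-Hochberg adjustment. The relative fit subtracted the mean log2 level of 10 macrophage markers. Alternatives were other pseudocounts, filters, scalings and references, robust fitting, a block by replicate number, single libraries left out, edgeR 4.0.16 and DESeq2 1.42.0. The fits were tested on simulated counts. The 10 genes, the lists and the tests were chosen with earlier results of these data known. Of each list the text names up to 3 called genes with the smallest p, or the most abundant gene. Apoe, Spp1, Timd4, Atp6v0d1, Cd63-ps, Tcirg1, Rragd, Mmp25, Vcan, Chil3 and the genes of the last paragraph were picked once their values had been seen. So were the genes left out of list sums. The lowest chi-square per degree of freedom between libraries of a group was 5.96, so every library was counted as its own sample. RefSeq promoters are of GRCm38.p6, and no other coordinates are given. Figures used Python 3.11.15 and matplotlib 3.10.9.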

Additional observations from a re-analysis of the deposited data

Results flagged for a closer look

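Among 41 named genes, each examined in both groups (82 groups of libraries), 4 values stood apart from their group by Dixon's criterion, in 2 libraries (WD+alcohol 2 and control 4), where chance alone flags about 1 group in 20. One concerned the 10 genes: Cd63 was at 325 CPM in WD+alcohol 2, against 271 CPM in the next highest library of that group. The same library stood apart for Timp2, at 838 CPM against 709 CPM in the next highest, and for Pecam1, at 44.0 CPM against 40.0 CPM. For Pecam1, control 4 also stood apart, at 39.6 CPM against 28.3 CPM in the next highest control.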

How the results depend on the processing

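Gpnmb, Mmp12 and Cd68 were called in all 19 alternatives, and Trem2 and Atp6v0d2 in all 18 in which they were tested (both were under a mean of 5 CPM). Msr1 was called in 18 of 19, the exception being the replicate block. The number of the 10 genes called ranged from 4 to 7. Cd63 turned negative with median-of-ratios scaling (-0.0032), edgeR (-0.0042) and DESeq2 (-0.0032), and lay between -0.067 and 0.041 when single libraries were left out. Over all genes, DESeq2 called 545 (370 higher, 175 lower), the replicate block 112 (76 higher, 36 lower), and rescaling to one total gave 365 higher. Leaving out single libraries gave 201 to 387 genes called, 139 to 264 higher and 59 to 123 lower, with the fewest without WD+alcohol 5 (201). Without control 1, 148 were higher, and without control 2, 59 were lower. The cause was not tested. Replicate numbers did not pair the mice (correlations of deviations from the group means of -0.31 to -0.01), and WD+alcohol 5 has no partner and does not inform the blocked fit.

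Relative to the macrophage markers, 3 genes of the 10 were higher with a pseudocount of 5 and 3 with Adgre1 and Csf1r alone as reference. There, 31 genes of all tested were higher, Cd68 was at -0.24 with that reference, and Atp6v0d2 at -0.036 with a pseudocount of 5, which shrinks low genes by construction. Leaving out single libraries gave 2 to 4 of the 10 lower, with 2 without control 3, and 4 to 5 higher. With the replicate block 9 of the 10 were called, as without it. Depth limits Trem2 and Atp6v0d2 most, with 9 and 19 reads over all controls.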

Other observations

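The 4 genes that were not called stood beside other transcripts of connective tissue, platelets, bile duct and dendritic cells that were abundant and nearly level in all 9 libraries. Col1a1, the main fibrillar collagen gene, ranged from 1859 to 2217 CPM in WD+alcohol and from 1924 to 2174 CPM in controls. Col1a2 ranged from 2162 to 2583 CPM in WD+alcohol and from 2089 to 2495 CPM in controls, while Lrat and Des, which mark stellate cells, stayed between 0.758 and 7.28 CPM in every library. The platelet gene Ppbp ranged from 53.1 to 65.9 CPM in WD+alcohol and from 60.1 to 72.5 CPM in controls. Sox9, a transcription factor gene of cholangiocytes, ranged from 92.6 to 118 CPM in WD+alcohol and from 90.9 to 109 CPM in controls, against 1.36 to 4.80 CPM in WD+alcohol and 1.91 to 4.45 CPM in controls for the keratin gene Krt19. Xcr1 ranged from 41.0 to 59.9 CPM in WD+alcohol and from 45.4 to 51.8 CPM in controls, Timp2 from 695 to 838 CPM in WD+alcohol and from 744 to 800 CPM in controls, and the platelet integrin gene Itga2b from 37.7 to 53.5 CPM in WD+alcohol and from 42.9 to 53.6 CPM in controls. Whether the levels of Cd63, Cd9, Lgals3 and Itgax share a source with these transcripts was not tested.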
